A study of Homo sapiens with 6 samples.

Results

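The genes described here are 41 genes of glycolysis and of the response to low oxygen, read by RNA-Seq in A549 cells with and without knock-down of the histone methyltransferase subunit KMT9α. They were picked by symbol for their known roles, and all 41 were found among the 23180 gene symbols counted. Where a gene had several transcripts, the one with most counts in all 6 samples together stands for it. A549 is an established human lung adenocarcinoma cell line, labelled wild type here and at passage 11 in every sample. The 3 siControl samples received a control siRNA and the 3 siKMT9α samples an siRNA against KMT9α, which per the study's methods was the single sequence siKMT9α#1. Transfection was at 65 nM, and cells were harvested on day 3. With 1 cell line and 1 targeting siRNA, effects of the lost gene and other effects of that siRNA sequence cannot be told apart. In such bulk RNA, fewer cells of a kind and less RNA per cell cannot be told apart either.

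Glycolysis splits glucose into pyruvate in the cytosol, with hexokinase, phosphofructokinase and pyruvate kinase as its regulated steps, and lactate dehydrogenase then turns pyruvate into lactate. Glucose enters through SLC2A (GLUT) carriers and lactate leaves through SLC16A (MCT) carriers. In low oxygen the transcription factors HIF-1α and HIF-2α (HIF1A and EPAS1) escape hydroxylation by the EGLN dioxygenases and ubiquitination by the VHL ligase, and raise many genes of this list. Tumor cells often run glycolysis in the presence of oxygen too.

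Gene totals were between 13740097 and 19832395.5 counts per sample. Levels are in CPM, edgeR's unit of counts brought to the same library size for all samples, with TMM factors, and differences are log2 fold changes of siKMT9α over siControl with their standard error (SE). The transcript of KMT9α, encoded by N6AMT1, was at 10.2, 10.9 and 11.4 CPM with siControl and at 2.87, 3.21 and 3.35 CPM with siKMT9α (log2 fold change -1.77, SE 0.12, edgeR adjusted p = 1.43e-10). Among 7 epithelial markers the keratins KRT8, KRT18 and KRT7 were high, whereas EPCAM was at 3.85 CPM on average with siControl and 0.572 CPM with siKMT9α. CDH1 was at 3.37 and 8.60 CPM. The summed level of these 7 was 4400.1 to 4884 CPM with siControl and 2942 to 3130.3 CPM with siKMT9α. Of 5 markers of alveolar type 2 cells, which A549 cells are often used to model, 4 stayed under 1 CPM in every sample, with SFTPA1 at 0. Fibroblast markers summed to 6.91 to 8.70 CPM with siControl and 3.21 to 3.92 CPM with siKMT9α, endothelial markers to at most 0.802 CPM and leukocyte markers to at most 0.302 CPM, with CD3E and HBB at 0. The part of these marker differences in the results below was not tested.

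Of the 41 genes, 40 passed the filter on low counts, and 34 of the 40 (85.0%) had an adjusted p under 0.05. In all, 18 were higher with siKMT9α (45.0%) and 16 were lower (40.0%). Changes of this kind were common in these cells: 75.6% of the 13877 genes tested passed the same test, 37.1% higher and 38.5% lower, so the number of members called is near the background and is no result about the list. At the stricter threshold of the study's methods (unadjusted p under 1e-08 and an absolute log2 fold change over 0.26), 19 of the 40 members passed. Of these, 9 were higher (22.5% of the 40) and 10 lower (25%). Of all genes, 24.2% passed, 13.5% higher and 10.7% lower. Passing a p threshold also depends on a gene's counts, and the members were not compared with genes of like level. Without siKMT9α replicate 2 the members that passed were 5 higher and 5 lower, and without siControl replicate 2 or 3 the higher ones were 5. The 3 siControl and the 3 siKMT9α values did not overlap for 33 of the 40 members, and for 77.0% of all genes. The median log2 fold change was 0.03 over the members and -0.01 over all genes, and the median absolute change was 0.52 against 0.47. The list thus did not shift in 1 direction, and the members of a step or family often differed in theirs.

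**Figure D1:**
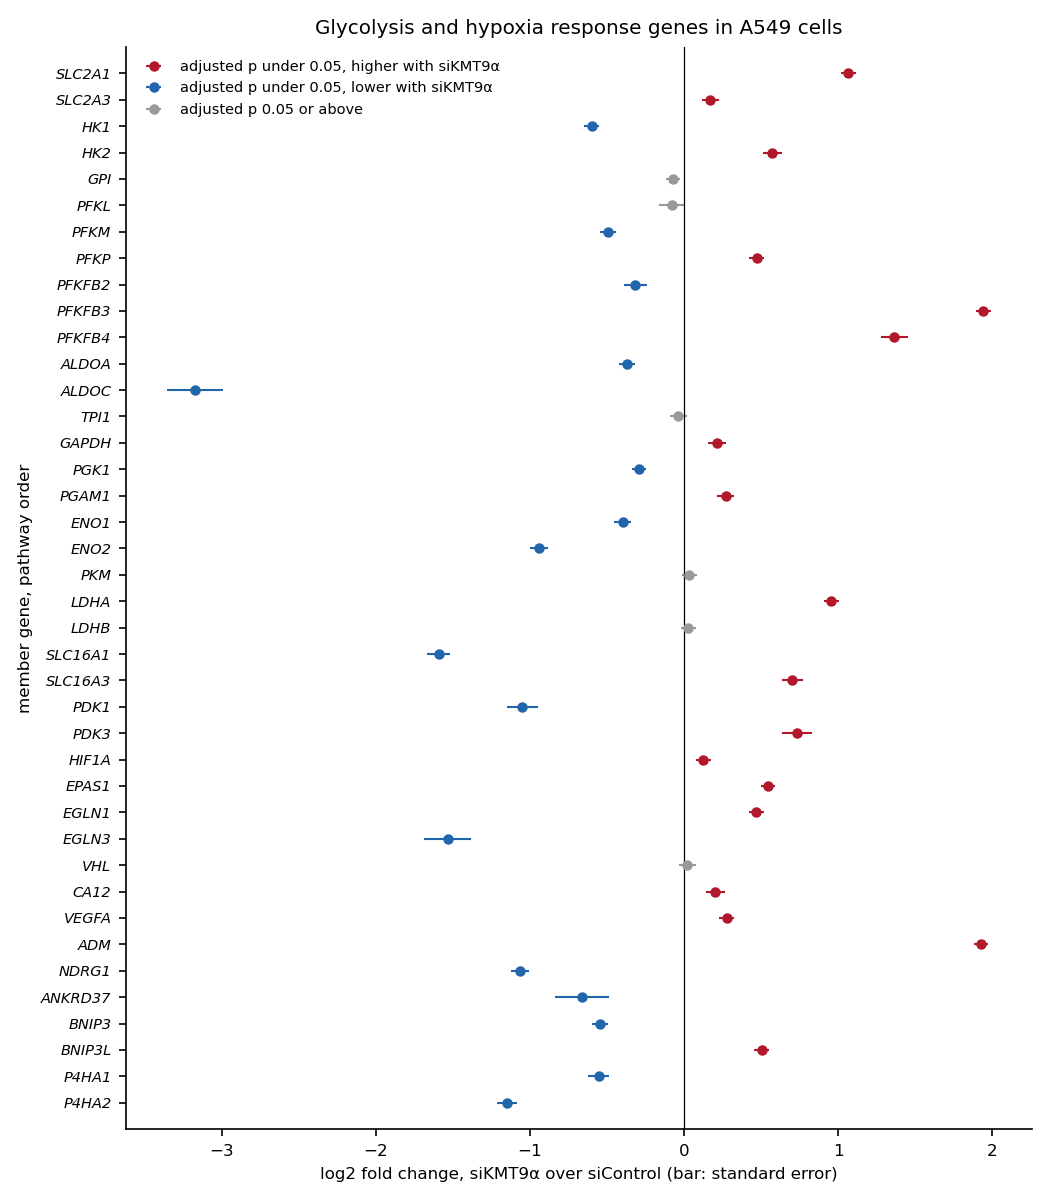
Log2 fold change of siKMT9α over siControl for the 40 genes tested, from glucose uptake at the top to HIF targets at the bottom, with bars of 1 standard error. PFKFB3 at 1.94 and ADM at 1.93 lie farthest to the right and ALDOC at -3.17 farthest to the left, and the grey points are the 6 genes whose adjusted p was 0.05 or above.

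At the entry of the pathway, the glucose carrier SLC2A1 rose. SLC2A1 (GLUT1, the basal glucose carrier of most cells) was at 168, 159.6 and 160.4 CPM with siControl and at 328, 335 and 359 CPM with siKMT9α. The groups lay far apart, with a log2 fold change of 1.07 (SE 0.05, edgeR adjusted p = 2.91e-13), or 2.09-fold. SLC2A3 (GLUT3, a high-affinity carrier known from neurons) was at 182.5, 159.6 and 168 CPM against 185, 183.2 and 206 CPM. These groups were separated by a narrow gap (0.17, SE 0.06, edgeR adjusted p = 0.0111), and the call was lost without siControl replicate 2 (adjusted p = 0.0622) and without siKMT9α replicate 3 (adjusted p = 0.0563). It was also lost with library size alone (0.07, adjusted p = 0.296) and with offsets for GC content and transcript length (0.04, adjusted p = 0.414). Per kb of transcript, SLC2A1 made up 50.7% ± 1.04 (SD, n = 3) of the sum of both carriers with siControl and 65.6% ± 0.524 with siKMT9α.

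The lactate carriers went in opposite directions. SLC16A1 (MCT1, which moves lactate both into and out of cells) was at 222, 188 and 182 CPM with siControl and at 60.3, 62.6 and 72.7 CPM with siKMT9α. This was a 3.01-fold fall (log2 fold change -1.59, SE 0.07, edgeR adjusted p = 3.42e-13), and the lowest siControl sample was above every siKMT9α sample. SLC16A3 (MCT4, the exporter of glycolytic cells and a known HIF target) was at 20.6, 20.9 and 20.6 CPM against 32.0, 34.0 and 34.7 CPM, a rise of 0.70 (SE 0.07, edgeR adjusted p = 1.19e-08). Per kb, the 2 carriers stood at 50.6 and 10.2 CPM with siControl and at 16.7 and 16.5 CPM with siKMT9α. The share of SLC16A3 in their sum went from 16.8% ± 1.49 (SD, n = 3) to 49.8% ± 1.73, while the sum itself fell from 60.8 ± 5.49 to 33.2 ± 2.28 CPM per kb.

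The hexokinases, which trap glucose in the cell as glucose 6-phosphate, were also split. HK1, the constitutive enzyme, was at 101, 94.8 and 101 CPM with siControl and at 63.3, 66.6 and 65.5 CPM with siKMT9α (log2 fold change -0.60, SE 0.05, edgeR adjusted p = 2.24e-09). HK2, the inducible enzyme of muscle and many tumors and a HIF target, was at 30.9, 30.3 and 31.5 CPM against 45.6, 49.2 and 43.5 CPM (0.57, SE 0.06, edgeR adjusted p = 1.02e-07). Neither gene's groups overlapped. HK1 remained the larger of the 2 in each sample, and the share of HK2 per kb went from 13.7% to 26.3%. With offsets for GC content and transcript length the rise of HK2 was 0.28, and it stayed past the threshold.

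Glucose phosphate isomerase (GPI), the next enzyme, did not pass the test (-0.07, SE 0.05, edgeR adjusted p = 0.185), with 512 to 544 CPM and 493 to 527 CPM in overlapping groups. Of the 3 subunits of phosphofructokinase, the committing step, the platelet-type PFKP rose from 458, 467 and 483 CPM to 668, 636 and 649 CPM (0.47, SE 0.05, edgeR adjusted p = 2.3e-08). The muscle-type PFKM fell from 103, 105 and 101 CPM to 72.7, 70.2 and 76.1 CPM (-0.49, SE 0.05, edgeR adjusted p = 3.15e-08). The liver-type PFKL was low and gave no call, at 14.3, 16.0 and 15.2 CPM against 15.0, 14.2 and 13.9 CPM (-0.08, SE 0.08, edgeR adjusted p = 0.406). PFKP already held 82.7% of the per-kb sum with siControl and held 89.9% with siKMT9α.

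With ADM, described below, the largest rises of the list were in the enzymes that set fructose 2,6-bisphosphate, the allosteric activator of phosphofructokinase. PFKFB3, whose kinase activity far exceeds its phosphatase activity and which is known as an inducible, HIF-responsive isoform, is encoded on chromosome 10 (hg19, chr10:6244840-6277507, plus strand). It was at 196, 197 and 203 CPM with siControl and at 776, 784 and 729 CPM with siKMT9α. This 3.84-fold rise (log2 fold change 1.94, SE 0.05, edgeR adjusted p = 5.76e-17) ranged from 1.93 to 1.98 when single samples were left out. PFKFB4, another HIF-responsive isoform, rose from 9.66, 9.19 and 9.66 CPM to 23.6, 22.8 and 26.8 CPM (1.36, SE 0.09, edgeR adjusted p = 4.2e-11). PFKFB2, the heart-type isoform, fell from 25.05, 26.4 and 25.7 CPM to 18.9, 21.3 and 21.5 CPM (-0.32, SE 0.07, edgeR adjusted p = 0.000685). The size of this last fall depends on the transcript read, since the shorter of its 2 RefSeq transcripts gave -1.09, and on the GC and length offsets, which gave -0.60. The PFKFB sum per kb went from 50.3 ± 0.803 to 179 ± 5.84 CPM, of which PFKFB3 held 87.3% and 94.4%.

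**Figure D2:**
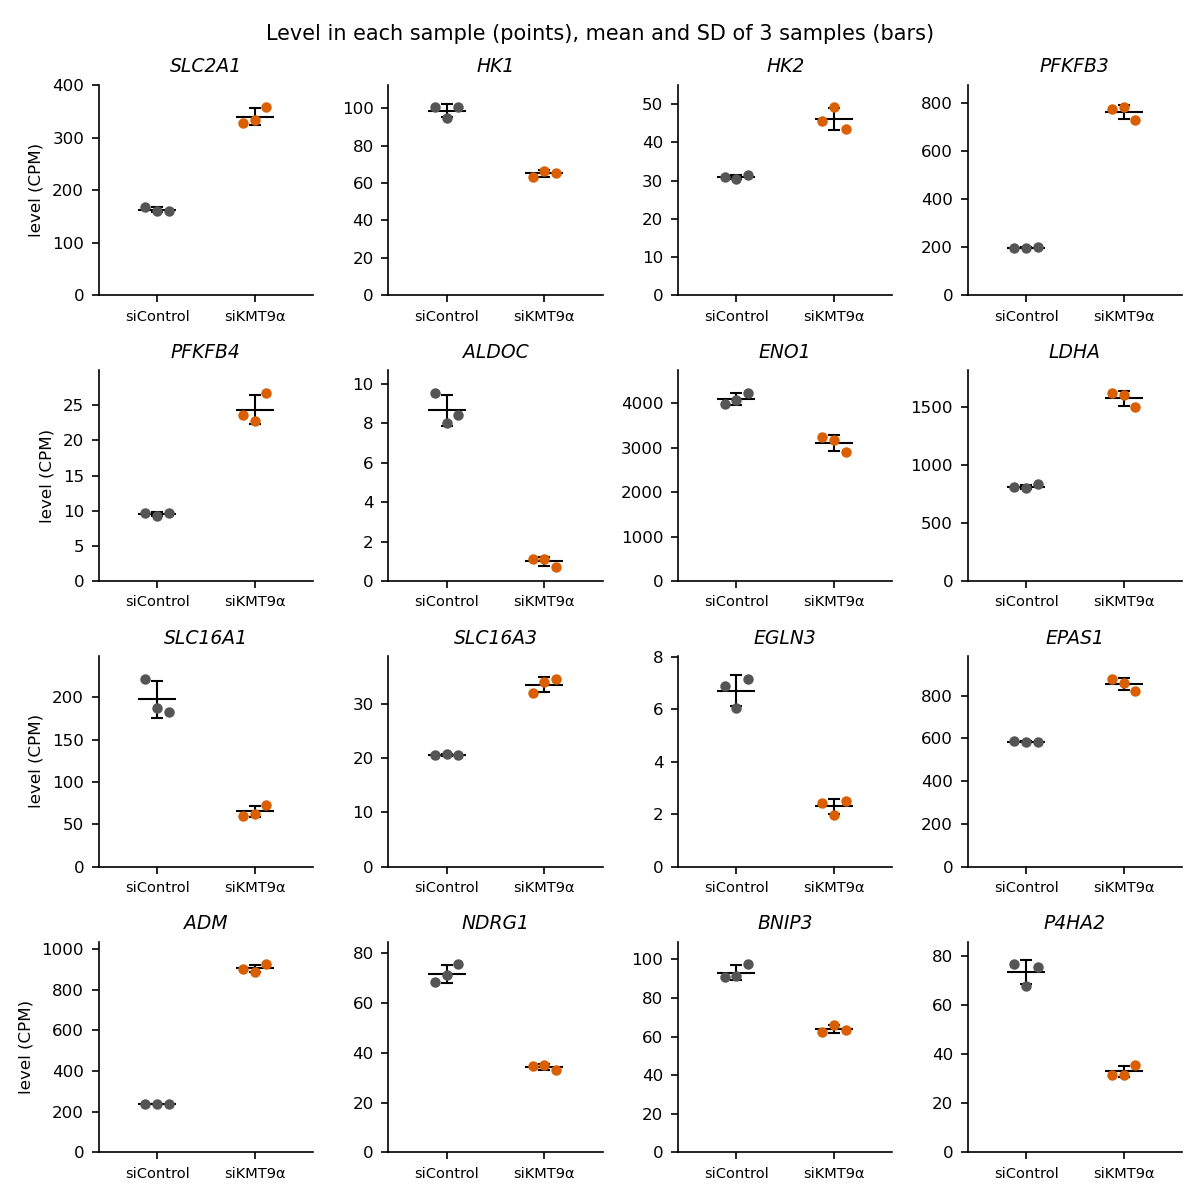
Level in CPM of 16 of the 41 genes in each of the 3 siControl and 3 siKMT9α samples (points), with the mean and SD as bars, each panel on its own linear axis from 0. In every panel the 2 groups are apart, with SLC2A1, HK2, PFKFB3, PFKFB4, LDHA, SLC16A3, EPAS1 and ADM higher with siKMT9α and HK1, ALDOC, ENO1, SLC16A1, EGLN3, NDRG1, BNIP3 and P4HA2 lower. The 16 were picked for display, and none of the members with overlapping groups is among them. Of all genes tested, 77.0% had groups that did not overlap.

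In the trunk of the pathway, from aldolase to pyruvate kinase, changes of the abundant enzymes were small. ALDOA, the main aldolase, fell from 735, 802 and 788 CPM to 634, 597 and 573 CPM (-0.37, SE 0.05, edgeR adjusted p = 2.92e-06). The brain-type aldolase ALDOC (hg19, chr17:26900133-26903951, minus strand) had the largest change of the list, from 9.55, 8.02 and 8.42 CPM to 1.13, 1.10 and 0.732 CPM. This was a 9.02-fold fall (log2 fold change -3.17, SE 0.18, edgeR adjusted p = 6.53e-12) of a gene that made up 1.597% of aldolase transcripts per kb with siControl. Triose phosphate isomerase (TPI1) gave no call (-0.04, SE 0.05, edgeR adjusted p = 0.548), with overlapping groups at 779 to 831 and 730.1 to 838 CPM.

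GAPDH, often used as a reference gene, was at 3436, 3603 and 3651 CPM with siControl and at 4393, 4221 and 3787 CPM with siKMT9α. It rose by 0.21 (SE 0.06, edgeR adjusted p = 0.00248), but with library size alone as the scaling the difference was 0.11 and did not pass (adjusted p = 0.0948), and with GC and length offsets it was 0.45. PGK1, the first step that yields ATP, fell from 909, 913 and 905 CPM to 757, 754 and 717 CPM (-0.29, SE 0.05, edgeR adjusted p = 1.25e-05). The mutase PGAM1 rose from 94.2, 88.8 and 93.4 CPM to 119, 111 and 104 CPM (0.27, SE 0.05, edgeR adjusted p = 0.000189).

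Both enolases fell. ENO1, the ubiquitous enzyme, was at 3978, 4082 and 4241 CPM with siControl and at 3252, 3179 and 2910.0 CPM with siKMT9α (-0.40, SE 0.05, edgeR adjusted p = 2e-06). ENO2, the neuronal enolase and a HIF target, went from 103, 101 and 96.8 CPM to 49.9, 50.1 and 56.1 CPM (-0.94, SE 0.06, edgeR adjusted p = 1.34e-11). Pyruvate kinase (PKM) was at 2379 to 2540 CPM against 2471 to 2558 CPM, in overlapping groups (0.03, SE 0.05, edgeR adjusted p = 0.552). Its 7 listed transcripts, which share most exons and hold both the PKM1 and PKM2 forms, gave 0.02 to 0.04. How reads of near-identical copies were assigned is not given in the sources used here, and GAPDH, PGAM1, PGK1, ENO1, LDHA and others of these enzymes have processed pseudogenes, so a part of their counts may be shared with such copies.

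At the end of the pathway, LDHA (the muscle-type subunit of lactate dehydrogenase, a HIF and MYC target) rose from 807, 798 and 831 CPM to 1621, 1604 and 1501 CPM. The change was 1.94-fold (log2 fold change 0.96, SE 0.05, edgeR adjusted p = 1.39e-12). LDHB, the heart-type subunit, was at 1279.9, 1216 and 1256 CPM against 1271, 1293 and 1263 CPM, with no call (0.03, SE 0.05, edgeR adjusted p = 0.587). LDHA held 27.8% ± 0.527 (SD, n = 3) of the per-kb sum with siControl and 42.3% ± 0.863 with siKMT9α. LDHB thus remained the larger subunit in each sample. Small differences of such abundant genes depend on the scaling. With GC and length offsets TPI1 (0.18, adjusted p = 0.000437), PKM (0.18, adjusted p = 0.000187) and LDHB (0.15, adjusted p = 0.00143) passed the test as higher and GPI (-0.17, adjusted p = 0.000727) as lower, and with library size alone GPI (-0.18, adjusted p = 0.00259) and TPI1 (-0.14, adjusted p = 0.0228) passed as lower.

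Summed over the 17 genes from hexokinase to lactate dehydrogenase, the level was 16143 ± 396 CPM with siControl and 16283 ± 740.3 CPM with siKMT9α (SD, n = 3 each). The single sums were 15728, 16184 and 16517 CPM against 16882, 16512 and 15455 CPM, in overlapping groups. As a share of all gene counts they held 1.67% ± 0.0447 and 1.57% ± 0.0706. In this sum the rises of LDHA and GAPDH stand beside the falls of ENO1, ALDOA and PGK1. Compared per kb of transcript, the siControl order was GAPDH (2756 CPM per kb), ENO1 (1895), PKM (996), LDHB (961) and TPI1 (561), and with siKMT9α it was GAPDH (3197), ENO1 (1439), PKM (1019.5), LDHB (980.0) and LDHA (718). PKM and LDHB lay close together in both groups.

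**Figure D3:**
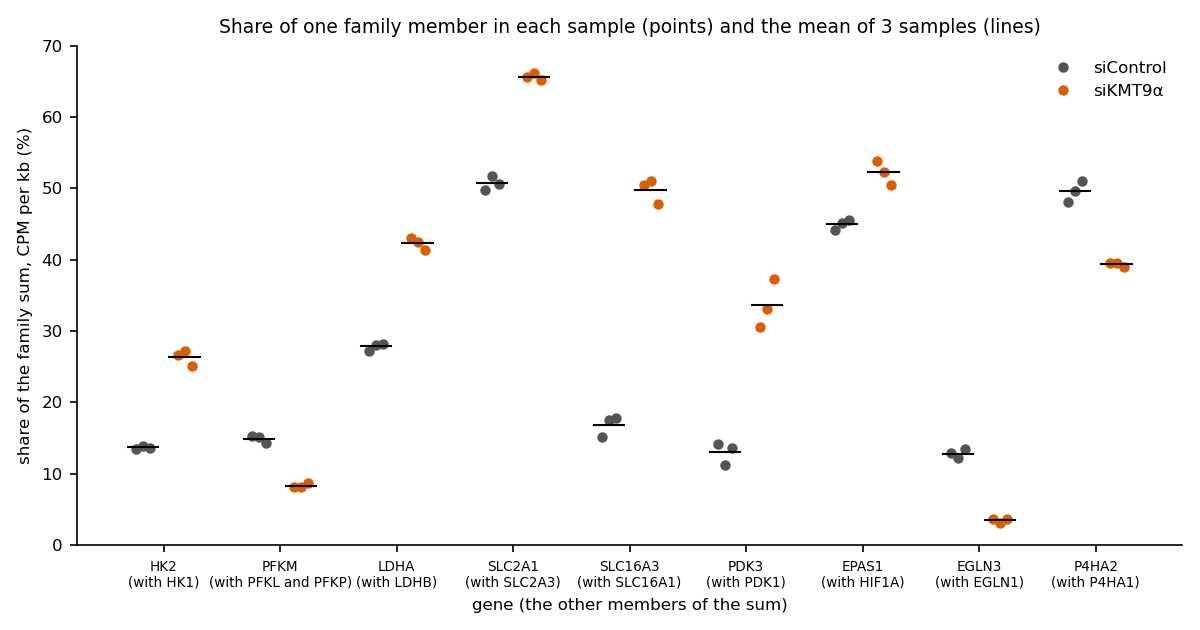
Share of 1 member in the per-kb sum of its family in each sample (points), as a percentage of CPM per kb, with the mean of 3 samples as a line. The siControl and siKMT9α points are apart for all 9 families drawn, and SLC16A3 shows the widest shift, from 16.8% to 49.8%. Families outside the list were not compared.

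Ratios between family members need no scaling between samples and were compared for 15 pairs. In all 15 the 3 siControl and 3 siKMT9α ratios did not overlap, which in a two-sided exact permutation test over 6 samples gives p = 0.1, the smallest value this design allows (p = 0.1 after adjustment over the pairs). In 7 pairs the log2 ratio moved by more than 1. Pairs of other genes were not compared, and 77.0% of all single genes tested had groups that did not overlap. The counts of 15 and 7 pairs are therefore no result about these families. PFKFB3 over PFKFB2 moved by 2.26, from 12.02 to 57.7 as a linear ratio per kb. SLC16A3 over SLC16A1 moved by 2.30, PDK3 over PDK1 by 1.77, HK2 over HK1 by 1.18 and BNIP3L over BNIP3 by 1.05. In the other direction, ALDOC over ALDOA moved by -2.76 and EGLN3 over EGLN1 by -2.005. A ratio shows that the members of a pair changed unequally, not which of them changed. The ratios carry no offsets for GC content and transcript length, which can move the members of a pair unequally. With those offsets the log2 fold changes were 0.28 for HK2 and -0.62 for HK1, from 0.57 and -0.60. For BNIP3L and BNIP3 they were 0.48 and -0.41, from 0.51 and -0.54. The pair of CA12 and CA9 was left out, because CA9 never had more than 3 counts.

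Entry of pyruvate into mitochondria is checked by the pyruvate dehydrogenase kinases, which switch off the pyruvate dehydrogenase complex. PDK1, the isoform induced by HIF-1, fell from 19.7, 23.2 and 19.95 CPM to 11.6, 9.49 and 9.41 CPM (-1.05, SE 0.10, edgeR adjusted p = 1.26e-08). PDK3 went from 9.13, 8.15 and 8.83 CPM to 14.4, 13.1 and 15.7 CPM, in groups that did not overlap (0.73, SE 0.10, edgeR adjusted p = 1.67e-06). This rise was of the longer PDK3 transcript. The shorter one, with 50 counts per sample on average, gave 0.11 (edgeR adjusted p = 0.544), and GC and length offsets brought the longer one to 0.27.

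Among the HIF factors, EPAS1 changed more than HIF1A. EPAS1 was at 587, 583 and 584 CPM with siControl and at 879, 857 and 822 CPM with siKMT9α (0.54, SE 0.05, edgeR adjusted p = 2.83e-09), or 0.36 with GC and length offsets. HIF1A was at 581, 556 and 548 CPM against 591, 613 and 634 CPM (0.13, SE 0.05, edgeR adjusted p = 0.0232). That call was lost with the replicate number as a block (adjusted p = 0.0594), with library size alone (adjusted p = 0.705) and with GC and length offsets (adjusted p = 0.133). It was also lost without siControl replicate 2 (adjusted p = 0.0573), siControl replicate 3 (adjusted p = 0.0964) or siKMT9α replicate 2 (adjusted p = 0.06). The antisense gene HIF1A-AS2 shares 1221 bases with HIF1A and had 30.2% of its counts, and whether the counting used strand is not given in the sources used here. Both factors act as proteins whose stability is set by oxygen, and a transcript level does not measure that. Per kb, EPAS1 made up 45.0% of the sum of both with siControl and 52.2% with siKMT9α.

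The oxygen sensors were split as well. EGLN1 (PHD2, the main HIF hydroxylase) rose from 122, 115 and 120.2 CPM to 164, 159.5 and 171 CPM (0.47, SE 0.05, edgeR adjusted p = 4.51e-08), and by 0.17 with GC and length offsets. EGLN3 (PHD3, usually among the genes most strongly induced by HIF) fell from 6.90, 6.05 and 7.17 CPM to 2.42, 1.97 and 2.51 CPM (-1.53, SE 0.15, edgeR adjusted p = 2.2e-08). VHL was at 57.0, 60.2 and 58.3 CPM against 55.7, 58.6 and 63.3 CPM, without a call (0.02, SE 0.06, edgeR adjusted p = 0.738). With GC and length offsets VHL was instead lower (-0.17, adjusted p = 0.00521).

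The remaining HIF targets divided into genes that rose and genes that fell. ADM, which encodes the vasodilator peptide adrenomedullin (hg19, chr11:10326642-10328923, plus strand), was at 236, 238 and 238 CPM with siControl and at 901, 886 and 924 CPM with siKMT9α. The 3.81-fold rise (log2 fold change 1.93, SE 0.05, edgeR adjusted p = 3.63e-17) was of about the size of that of PFKFB3, and the larger of both once GC content and length were offset (2.14 against 1.87). VEGFA, the angiogenic growth factor, rose from 109.6, 112 and 109 CPM to 129, 131 and 140.3 CPM (0.28, SE 0.05, edgeR adjusted p = 4.17e-05). All 18 of its transcripts gave 0.28, but they share most of their reads, so this adds no separate evidence. CA12, a membrane carbonic anhydrase, was at 499.8, 416 and 437 CPM against 504, 499.7 and 554 CPM. Its groups overlapped slightly, and its call (0.20, SE 0.06, edgeR adjusted p = 0.0058) was lost with library size alone (adjusted p = 0.146) and with GC and length offsets (adjusted p = 0.145). CA9, the carbonic anhydrase most used as a hypoxia marker, had 3, 0 and 0 counts with siControl and 0, 1.5 and 1.5 with siKMT9α, which is at or under the floor of 3 counts per sample, so no fold change is given.

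Of the genes that fell, NDRG1 (a stress-responsive gene linked to differentiation) went from 68.3, 71.1 and 75.5 CPM to 34.9, 34.9 and 33.1 CPM (-1.07, SE 0.06, edgeR adjusted p = 3.77e-12). P4HA1 and P4HA2 encode the catalytic subunits of collagen prolyl 4-hydroxylase. P4HA2 fell from 76.6, 67.9 and 75.7 CPM to 31.7, 31.7 and 35.5 CPM (-1.15, SE 0.06, edgeR adjusted p = 5.6e-12). P4HA1 fell less, from 106, 88.5 and 93.2 CPM to 62.1, 62.1 and 71.3 CPM (-0.55, SE 0.07, edgeR adjusted p = 4.81e-07). ANKRD37, a small ankyrin-repeat gene, was low, at 5.09, 3.83 and 3.95 CPM against 3.17, 2.85 and 2.30 CPM (-0.66, SE 0.17, edgeR adjusted p = 0.00205). It shares 697 bases with UFSP2 on the opposite strand, which had 881% of its counts.

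The pair of mitophagy receptors BNIP3 and BNIP3L, related proteins that tag mitochondria for removal and are both HIF targets, moved apart. BNIP3 fell from 90.6, 91.2 and 97.4 CPM to 62.4, 66.2 and 63.2 CPM (-0.54, SE 0.05, edgeR adjusted p = 1.41e-08). BNIP3L (NIX) rose from 69.2, 68.4 and 70.6 CPM to 95.4, 101 and 99.1 CPM (0.51, SE 0.05, edgeR adjusted p = 1.68e-08). Neither pair of groups overlapped.

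Because known HIF targets were found in both directions, their promoters were read for ACGTG, the core letters of a hypoxia response element, on either strand. On the opposite strand these read CACGT. RefSeq promoters (GRCh38.p14, from 250 bases before to 50 bases after the gene's start) were at hand for 34 of the 41 genes, without SLC2A3, PFKFB2, SLC16A1, VHL, VEGFA, NDRG1 and BNIP3L. The letters stood in 14 of the 34 (41.2%), in 26.8% of the promoters of genes tested and in 21.6% of all 27305 promoters of that length. They were in 5 of 15 members that rose (33.3%) and in 7 of 13 that fell (53.8%). Over all genes called, they were in 25.5% of the higher and 28.7% of the lower. Matches inside CACGTG, an E-box that many other factors bind, stood in 5 members, and 12 members had a match outside an E-box. Of the members with the largest changes and a promoter at hand, ALDOC held both kinds of match. PFKFB3, PFKFB4, ADM, SLC2A1, EGLN3, P4HA2 and PDK1 held none in this window, which says nothing of elements elsewhere. The windows are set by the RefSeq gene start and were not matched to the starts of the counted transcripts. For PFKFB3 and HK1, for example, the window lies far upstream of the counted start, and for GAPDH inside the counted span. Other members may differ in the same way.

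Of these promoters 6, 3 of members that rose and 3 of members that fell, are shown from 10 bases before the first match to 10 bases after the last match upstream of the start, or as far as the 250 bases and the start allow. Capitals mark the core letters on either strand, and the whole E-box where they lie in one. Positions count from the RefSeq gene start, which for GAPDH lies inside the span of the counted transcript. LDHA (chr11:18394368-18394504, plus strand, bases -195 to -59) rose and held 2 E-boxes and 1 match alone, GAPDH (chr12:6535173-6535198, plus strand, bases -91 to -66) rose slightly and held 1 E-box, and EGLN1 (chr1:231422288-231422310, minus strand, bases -23 to -1) rose and held 1 match alone. PGK1 (chrX:78104036-78104079, plus strand, bases -212 to -169), ALDOC (chr17:28576909-28577145, minus strand, bases -250 to -14) and BNIP3 (chr10:131982042-131982067, minus strand, bases -144 to -119) fell.
LDHA: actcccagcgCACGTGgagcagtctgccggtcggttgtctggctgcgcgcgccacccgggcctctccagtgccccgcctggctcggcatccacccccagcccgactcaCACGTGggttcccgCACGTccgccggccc
GAPDH: tctgcggggtCACGTGtcgcagagga
EGLN1: gccgtggtgtACGTGcagagcgc
PGK1: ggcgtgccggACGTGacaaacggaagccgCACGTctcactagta
ALDOC: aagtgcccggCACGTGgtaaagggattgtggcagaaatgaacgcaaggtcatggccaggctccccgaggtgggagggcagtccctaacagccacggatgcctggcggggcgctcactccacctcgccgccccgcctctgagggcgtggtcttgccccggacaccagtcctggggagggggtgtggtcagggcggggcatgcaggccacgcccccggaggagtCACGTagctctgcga
BNIP3: gcacgcgccgCACGTGccacacgcac
The same letters therefore stood upstream of the RefSeq starts of genes with changes of 0.96 (LDHA) and of -3.17 (ALDOC), and E-boxes stood on both sides too. A match of letters is not a bound site, and binding was not measured here.

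In transcript length the called members resembled the genes around them. Members that rose had a median length of 3648.5 bases and those that fell 2557.5 bases, and over all genes called the medians were 3584 and 2549.5 bases. Median GC content was 51.9% in members that rose and 49.3% in those that fell, where all genes called had 47.8% and 49.7%.

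Further genes of the same pathways were measured beside the list. Of 50 other genes of glucose and pyruvate metabolism, 39 could be tested, and 12 were higher (30.8%, against 37.1% of all genes tested) and 20 lower (51.3%, against 38.5%), with a median log2 fold change of -0.20. The 3 largest rises were those of SLC2A13, a proton myo-inositol carrier (2.10), of BSG, the basigin chaperone that carries MCT1 and MCT4 to the cell surface (1.81), and of SLC16A7, the high-affinity pyruvate and lactate carrier MCT2 (1.35). BSG thus rose from 173 to 609 CPM on average while SLC16A1 fell. The 3 largest falls were those of LDHD, the mitochondrial D-lactate dehydrogenase (-2.87), of the muscle enolase ENO3 (-2.06), the third enolase to fall, and of PCK2, the mitochondrial PEP carboxykinase (-1.46).

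Genes around the step from pyruvate to acetyl-CoA are given here after their values were seen, and their directions as a group were not tested. Of the pyruvate dehydrogenase subunits, DLD fell by 1.14 on the log2 scale, PDHX by 0.89, PDHB by 0.68 and DLAT by 0.50, whereas PDHA1 rose by 0.16 (0.075 with GC and length offsets and 0.056 with library size alone). The mitochondrial pyruvate carrier subunit MPC1 fell from 22.0 to 11.2 CPM (-0.97), and MPC2 was at 51.0 and 49.97 CPM without a call (-0.03, edgeR adjusted p = 0.642). The kinases PDK2 (-0.59) and PDK4 (-1.04) fell with PDK1, so that of the 4 kinases PDK3 alone rose. The phosphatases that reverse the kinases were split, with PDP1 at 0.37 (edgeR adjusted p = 8.09e-06) and PDP2 at -0.30 (edgeR adjusted p = 1.86e-05), or 0.24 and -0.59 with GC and length offsets. Their regulatory subunit PDPR (0.13, edgeR adjusted p = 0.07) and pyruvate carboxylase PC (0.10, edgeR adjusted p = 0.27) were without a call.

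Of 60 other genes of the HIF system and its targets, 52 could be tested, and 20 were higher (38.5%) and 21 lower (40.4%), with a median of -0.06. These shares are near those of all genes tested, 37.1% and 38.5%, and are no result about the list. Large rises were those of CXCR4, a chemokine receptor (2.43), and LOXL2, a collagen cross-linking oxidase (2.00). The largest falls were those of ANG, the ribonuclease angiogenin (-2.28), of the lysyl oxidase LOX (-1.26) and of the hydroxylase EGLN2 (-0.90). Some further parts of the sensing machinery, again chosen after their values were seen, also moved, with HIF1AN, the asparaginyl hydroxylase that blocks HIF activity, at -0.85, the dimer partner ARNT at -0.48 and its relative ARNT2 at 0.80. The coactivators EP300 and CREBBP rose by 0.68 and 0.77, or by 0.32 and 0.47 with GC and length offsets. As among the members, known targets were found on either side of 0, such as KDM3A (0.63) and ANGPTL4 (0.77) above it and DDIT4 (-0.61, or -0.38 with GC and length offsets) and HILPDA (-0.36) below.

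**Figure D4:**
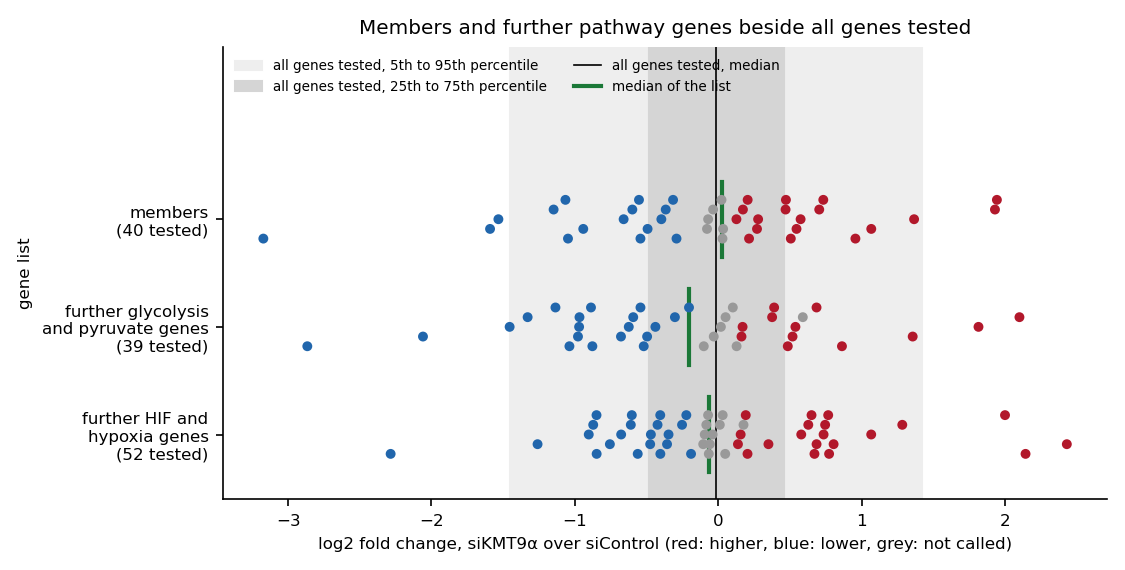
Log2 fold change of the 40 members and of the 39 and 52 further genes tested (points, red for higher, blue for lower, grey for no call), with the median of each list in green, over shaded bands for all 13877 genes tested. The list medians of 0.03, -0.20 and -0.06 lie inside the band from the 25th to the 75th percentile of all genes (-0.49 to 0.46), and each list has points beyond the 5th and the 95th percentile (-1.45 and 1.42).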

How the data were processed

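RNA-Seq of total RNA was analysed for 3 siControl and 3 siKMT9α samples of A549 cells, grouped by their labels. STAR alignments to hg19 were counted by the authors per RefSeq transcript with HOMER, and the deposited values are estimated counts, not normalized and in steps of 0.5 (36.4% were not whole). Whether counting used strand or multi-mapped reads is not given in the sources used here. Columns of the authors' own fold changes and p-values were not used. Of 38767 rows, 1182 without a symbol and counts were left out. Nothing in the labels beyond "biological replicate" ties samples to separate cultures, so p-values measure the spread between these samples.

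For each of the 23180 symbols the transcript with the largest summed count was kept, its estimated counts were rounded, and edgeR 4.0.16 (R 4.3.3; TMM, filterByExpr, quasi-likelihood F test, Benjamini-Hochberg over 13877 genes) was fitted. The script was tested on simulated counts. Genes with adjusted p under 0.05 were called. Gene totals of 13740097 to 19832395.5 counts gave a median SE of 0.08 on the log2 scale. Ratios between family members were formed per kb with 0.5 counts added and tested by two-sided exact permutation. All 41 members are named; of the further lists, the 3 largest changes in each direction that passed with groups apart (1 of these is not reported here), and others where said. The members and lists were chosen with earlier results of these data known.

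Alternatives were 2 other tests of edgeR (likelihood ratio, exact), DESeq2 1.42.0, library size alone, RLE factors, other filters (none, or at least 10 counts in every sample), doubled counts in place of rounding, every transcript or the second transcript, lowess offsets for GC content and length (GC known for all 41 members), a replicate block, 1 count in place of 0.5 in ratios, and leaving out each sample. Same-numbered samples did not deviate together (correlations -0.08, 0.02 and -0.08).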

Additional observations from a re-analysis of the deposited data

How the results depend on the processing

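The counts of members called, 18 higher and 16 lower, ranged from 14 to 18 higher and from 16 to 18 lower under the alternatives. The 15 ratios between family members kept their direction with 1 count in place of 0.5. Their groups did not overlap, so leaving out a sample could not turn a direction. The replicate block gives the same mean difference of a ratio by construction. Neither setting is therefore a test of the ratios, and GC and length offsets were not applied to them. At the study's stricter threshold the 9 higher and 10 lower members became 5 and 10 with library size alone, and 5 to 11 and 5 to 10 when single samples were left out (5 and 5 without siKMT9α replicate 2, and 5 higher without siControl replicate 2 or 3). More members passed with other settings, at 12 higher and 14 lower with the likelihood-ratio test and with the exact test. Without a filter they were 12 higher and 13 lower. Over all genes at that threshold, 1878 were higher and 1479 lower, against 3086 and 2876 with the likelihood-ratio test, 3071 and 2853 with the exact test, 3184 and 2886 without a filter, and 926 to 1798 lower when single samples were left out (926 without siKMT9α replicate 2). Library size alone shifted the median of all genes by -0.11, and turned the members' median from 0.03 to -0.080. That median was 0.041 without a filter, 0.043 with doubled counts and 0.066 with GC and length offsets. These medians are small beside the spread of the members. Of the causes of these shifts, none was tested.

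With the replicate block, which the check of the numbers does not back as a pairing, 974 genes were lower and 5 members higher and 5 lower at the stricter threshold, and HIF1A was the only member to lose its call at adjusted p under 0.05. With the block and GC and length offsets together, 2411 genes were lower and the members' median was 0.067.

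Of the 6 members without a call, 5 changed sign. PFKL was at 0.068 with GC and length offsets and 0.069 with the block added. TPI1 was at 0.18 with those offsets, 0.18 with the block added and between -0.076 and 0.021 when single samples were left out (0.021 without siKMT9α replicate 3). VHL was at -0.084 with library size alone, -0.17 with the offsets, -0.17 with the block added and between -0.030 and 0.066 when single samples were left out (-0.030 without siKMT9α replicate 3). PKM was at -0.073 and LDHB at -0.077 with library size alone. Depth limits CA9, which had too few counts to test, and ALDOC, EGLN3 and ANKRD37, whose SE was 0.15 to 0.18.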
